A study of Arabidopsis thaliana with 36 samples.

Results

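Root hairs are tubular outgrowths of single epidermal cells, and the genes described here are 4 regulators of hair fate and growth and 6 genes for proteins of the hair wall. The 10 genes were picked by locus, out of 32833 genes counted in each library: GL2 (AT1G79840), RHD6 (AT1G66470), RSL2 (AT4G33880), RSL4 (AT1G27740), PRP1 (AT1G54970), PRP3 (AT3G62680), EXPA7 (AT1G12560), EXPA18 (AT1G62980), COBL9 (AT5G49270) and LRX1 (AT1G12040). No value of these libraries entered the choice of loci, although earlier results of the same data were known. All 10 passed the filter on low counts in roots, and 5 of them, GL2, RHD6, PRP3, COBL9 and LRX1, passed it in shoots.

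Arabidopsis thaliana seedlings of 3 genotypes, Col-0, hy5 and phyAB, were sampled 6 days after germination. Roots and shoots were taken separately from plants at a day temperature of 21 °C, with nights at 15 °C, or of 27 °C, with nights at 21 °C, under 16 h of light and 8 h of dark. Each of the 12 groups has 3 libraries, which makes 18 root and 18 shoot libraries. The question was how warmth, HY5 and the phytochromes act on transcripts in each organ. HY5 is a light-responsive bZIP factor; the phytochromes A and B, encoded by PHYA and PHYB, are light receptors. How long plants were kept at 27 °C is not settled, since the title and design name 4 h while the treatment protocol names 3 days. The sources used here name neither the mutant alleles nor whether the libraries of a group come from separately grown plants. If they do not, p-values measure only the spread between these libraries, which may then be technical.

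In the Arabidopsis root, epidermal files alternate between hair cells and hairless cells. In hairless files a MYB and bHLH complex switches on GL2, a homeodomain-leucine zipper factor that keeps the hair programme off. In hair files the bHLH factor RHD6 starts the programme, the related factors RSL2 and RSL4 act after it, and the level of RSL4 is known to set how long hairs grow. Wall genes follow. PRP1 and PRP3 encode proline-rich wall proteins, EXPA7 and EXPA18 encode expansins that loosen the wall, COBL9 encodes a membrane-anchored COBRA-like protein needed for tip growth, and LRX1 encodes a leucine-rich repeat extensin.

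Sequence upstream of the genes is shown first, because the wall genes share a feature there that the regulators lack. Root hair genes are known for a short promoter motif, the root hair element, which bHLH factors of the RSL kind can bind. Its core was searched as TG, then 3 or 4 bases of any kind, then GCACG or TCACG, on both strands of the 250 bases before the annotated gene start. Capitals mark the core, read on the strand of the gene, so that a match on the other strand starts with CGTG. These stretches are from the RefSeq TAIR10.1 assembly, 5′ to 3′, and each lies on the plus strand except that of COBL9, which is on the minus strand. The first 4 lines show the core nearest to the start in 4 of the wall genes, and the last 2 show the whole 250 bases of the PRP pair, whose transcripts behaved least alike.
EXPA7, chr1:4276416-4276456: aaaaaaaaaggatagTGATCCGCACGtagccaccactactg
EXPA18, chr1:23331512-23331551: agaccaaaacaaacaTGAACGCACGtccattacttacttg
COBL9, chr5:19974552-19974592: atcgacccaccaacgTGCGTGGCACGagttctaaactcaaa
LRX1, chr1:4069886-4069925: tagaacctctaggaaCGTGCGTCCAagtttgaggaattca
PRP1, chr1:20504651-20504900: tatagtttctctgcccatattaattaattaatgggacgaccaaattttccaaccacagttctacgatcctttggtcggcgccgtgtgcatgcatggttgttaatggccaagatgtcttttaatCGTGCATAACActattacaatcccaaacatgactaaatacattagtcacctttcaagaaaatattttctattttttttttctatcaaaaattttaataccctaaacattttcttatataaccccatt
PRP3, chr3:23182472-23182721: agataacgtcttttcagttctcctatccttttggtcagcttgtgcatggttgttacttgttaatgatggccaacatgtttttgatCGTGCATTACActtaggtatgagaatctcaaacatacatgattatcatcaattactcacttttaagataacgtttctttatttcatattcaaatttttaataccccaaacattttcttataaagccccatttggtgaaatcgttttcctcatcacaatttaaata

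The core was found upstream of all 6 wall genes and of 0 of the 4 regulators. Over the 27437 protein-coding genes of the assembly, 4.12% had a match in a window of that length. The motif was known from root hair genes beforehand, so this contrast is a description and not independent support. LRX1 and EXPA7 each had a second match farther out, 247 to 238 bases and 246 to 237 bases before the start, and in COBL9 the match shown, 47 to 37 bases before the start, overlapped one on the other strand at 49 to 39 bases. The distance of the match nearest to the start ran from 36 to 27 bases in EXPA18 to 165 to 155 bases in PRP3. The letters ACGTG, the core of sites that bZIP factors such as HY5 can bind, occurred in EXPA7, EXPA18, COBL9 and LRX1, where a stretch of them overlaps the hair element core, and in 22.9% of all windows. They did not occur in the windows of PRP1, PRP3 or the 4 regulators. The longer G-box CACGTG and the L1 box TAAATGTA were found in 0 of the 10 windows, against 6.49% and 3.00% of all. A match is a string of letters and does not show that a factor binds there.

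**Figure D1:**
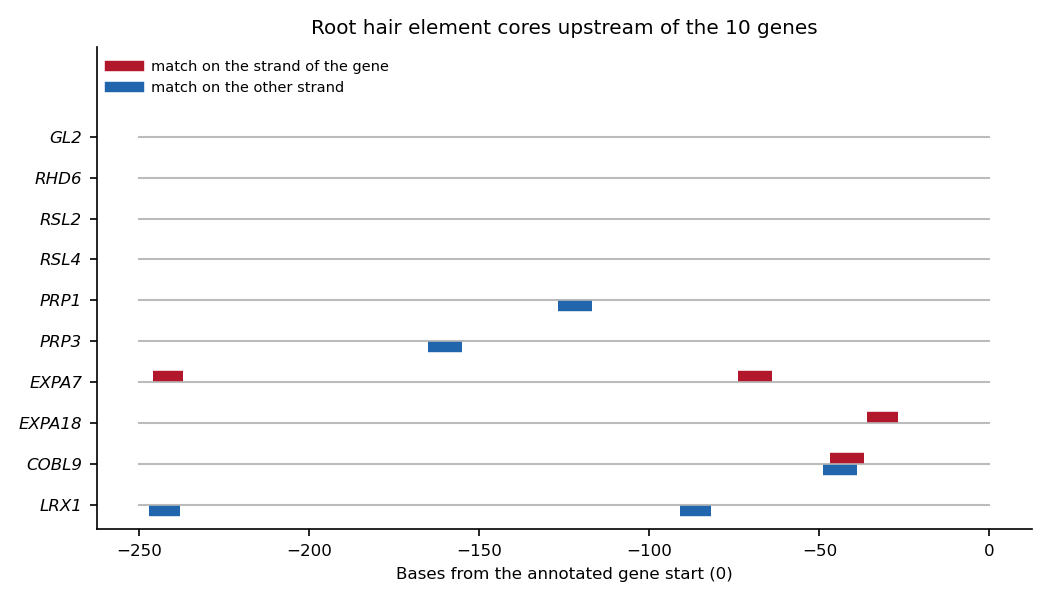
Position of root hair element cores in the 250 bases before the annotated start of each gene; the horizontal axis is the distance from the start in bases, and each grey line is 1 gene. Matches, drawn as coloured bars by strand, lie in all 6 wall genes and in 0 of the 4 regulators.

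Values below are CPM, that is, reads of a gene per 1000000 counted reads after scaling between libraries. They rest on 14810514 to 24006279 reads counted in genes per root library and on 17008543 to 23880472 per shoot library. Each log2 fold change was tested in edgeR (quasi-likelihood), its p adjusted by Benjamini-Hochberg over all genes, and 0.05 was the threshold. Marker genes served to check the tissue labels. The summed level of 11 photosynthesis genes was 33.0 to 606 CPM in root libraries and 98025 to 149845 CPM in shoot libraries, and 8 endodermis genes summed to 371 to 601 CPM in roots and 66.6 to 145 CPM in shoots. Replicate 3 of phyAB roots, at 21 °C and at 27 °C, carries the source name shoot, while its title and tissue say root. The photosynthesis sums of these libraries, 80.8 and 152 CPM, lie in the root range. They were used as roots, are called the phyAB libraries numbered 3, and phyAB calls of the 10 genes that change without them are given both ways. Values of other named genes, marker sums and ratios were not recomputed without them. Of the mutated genes, HY5 had 12.4 ± 0.705 CPM in hy5 and 48.5 ± 4.97 CPM in Col-0 roots at 21 °C (SD, n = 3). In shoots, scaled over the shoot libraries alone, it had 7.62 ± 0.449 and 7.75 ± 2.07 CPM. There its transcript does not tell the genotypes apart. PHYA had 16.5 ± 2.28 CPM in phyAB and 138 ± 3.78 CPM in Col-0 roots at 21 °C, and PHYB 41.2 ± 2.69 and 116 ± 4.15 CPM. One root library stands apart for these genes: hy5 at 21 °C, replicate 2, was the lowest of its group for all 10 of them, at 20604889 counted reads. The annotated span of GL2 overlaps those of AT1G09927 and AT1G79850, that of EXPA7 overlaps AT1G12570, and that of EXPA18 overlaps AT1G62978. Whether exons overlap was not examined. The strand setting of the counting is not given, so reads of such neighbours may enter the values of GL2, EXPA7 and EXPA18.

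Per kilobase of exon, levels in Col-0 roots at 21 °C fell in an order with the wall genes first. PRP3 led at 162 ± 10.07 CPM per kb (SD, n = 3), followed by EXPA7 at 56.2 ± 4.85, EXPA18 at 48.0 ± 3.68, PRP1 at 44.1 ± 7.28, LRX1 at 41.8 ± 1.23 and COBL9 at 26.3 ± 1.41 CPM per kb. Among the regulators RHD6 stood at 19.4 ± 0.616, RSL2 at 19.0 ± 0.965, RSL4 at 9.80 ± 1.05 and GL2 at 6.63 ± 0.0729 CPM per kb. PRP1 did not differ beyond its spread from EXPA18 above it or LRX1 below it, and neither did RHD6 from RSL2. In phyAB roots at 21 °C PRP1 was down to 2.57 ± 1.07 CPM per kb, below GL2 at 6.32 ± 0.495, and RSL4 was at 3.21 ± 0.449 CPM per kb.

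**Figure D2:**
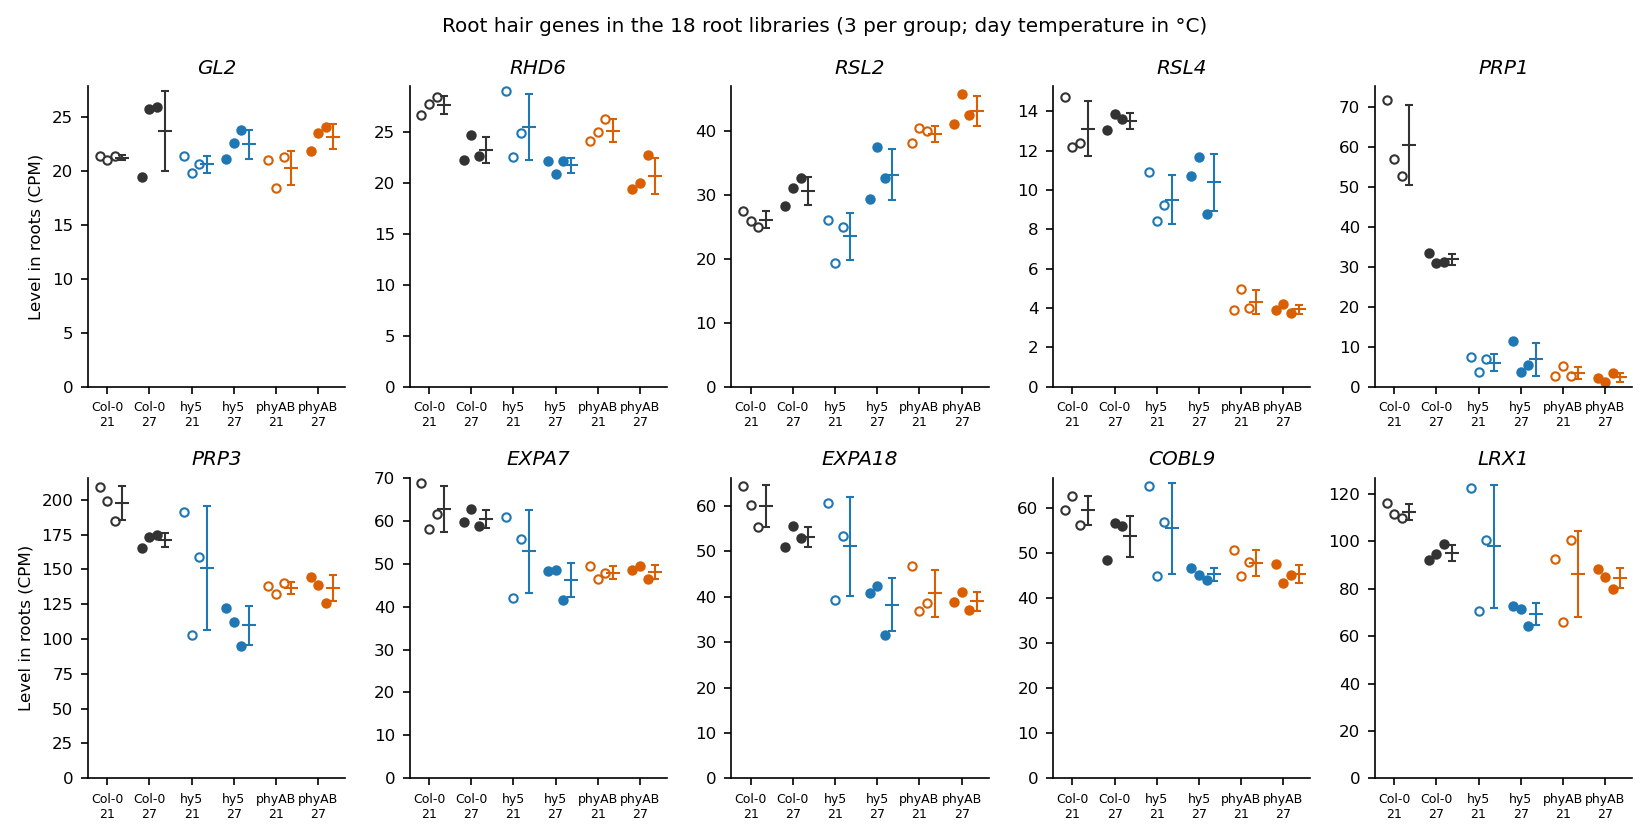
Level of each of the 10 genes, in CPM on a linear axis from 0, in each of the 18 root libraries, grouped by genotype and day temperature in °C; open points are 21 °C, filled points 27 °C, and the dash with its bar is the mean ± SD of 3 libraries. PRP1 and RSL4 separate the genotypes most, RSL2 is highest in phyAB, and GL2 spans 18.4 to 25.9 CPM over all 18.

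Differences between genotypes came first in size, and PRP1 was the gene that moved most. In Col-0 roots at 21 °C the 3 libraries read 71.8, 57.1 and 52.7 CPM of PRP1, in hy5 roots 7.58, 3.59 and 7.04 CPM, and in phyAB roots 2.73, 5.22 and 2.64 CPM. Every mutant library lay far below every Col-0 library, and the mutants overlapped each other. The log2 fold change against Col-0 was -3.33 (SE 0.304, adjusted p = 7.28e-08, edgeR) in hy5 and -4.08 (SE 0.333, adjusted p = 2.67e-08) in phyAB, a level 16.9-fold lower in the latter. At 27 °C PRP1 read 33.6, 31.0 and 31.2 CPM in Col-0, 11.5, 3.61 and 5.51 CPM in the hy5 libraries and 2.28, 1.18 and 3.56 CPM in phyAB. These groups did not overlap either, with log2 fold changes of -2.21 (SE 0.300, adjusted p = 1.29e-05) and -3.79 (SE 0.358, adjusted p = 1.81e-07), and the phyAB values were -3.92 and -4.19 without the libraries numbered 3. PRP3, which encodes the closest protein type among the 10, gave 209, 199 and 185 CPM in Col-0 at 21 °C, 191, 103 and 159 CPM in hy5 and 138, 132 and 140 CPM in phyAB. Its log2 fold changes at 21 °C were -0.39 (SE 0.142, adjusted p = 0.0394) in hy5, where the groups overlapped, and -0.53 (SE 0.143, adjusted p = 0.00683) in phyAB, where they did not. For each read of PRP3 there were thus 0.305 ± 0.0329 reads of PRP1 in Col-0 at 21 °C (SD, n = 3), 0.0396 ± 0.00473 in hy5 and 0.0260 ± 0.0117 in phyAB. Photosynthesis transcripts moved the same way in these roots, with a summed level of 214 to 274 CPM in Col-0, 33.0 to 42.4 CPM in hy5 and 80.8 to 141 CPM in phyAB at 21 °C; all 11 of them were lower in hy5 and 9 of 11 in phyAB. On the scale of all 36 libraries, PRP1 itself did not exceed 0.418 CPM in any of the 18 shoot libraries. The part of photosynthesis transcripts in its change was not tested.

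RSL4, which sets hair length, fell in both mutants and further in phyAB. Its levels at 21 °C were 14.7, 12.2 and 12.4 CPM in Col-0, 10.9, 8.42 and 9.24 CPM in the hy5 libraries and 3.92, 4.99 and 3.99 CPM in phyAB. The 3 genotypes did not overlap. Against Col-0 the log2 fold change was -0.46 (SE 0.116, adjusted p = 0.0044, edgeR) in hy5 and -1.60 (SE 0.131, adjusted p = 2.72e-08) in phyAB, and phyAB against hy5 gave -1.14 (SE 0.136, adjusted p = 7.71e-06). At 27 °C the levels were 13.1, 13.9 and 13.6 CPM in Col-0, 10.7, 11.7 and 8.80 CPM in the hy5 libraries and 3.91, 4.19 and 3.74 CPM in phyAB, again without overlap. The log2 fold changes there were -0.38 (SE 0.114, adjusted p = 0.0157) in hy5 and -1.77 (SE 0.129, adjusted p = 6.81e-09) in phyAB, and the hy5 call was lost without hy5 at 27 °C, replicate 3 (log2 fold change -0.27, adjusted p = 0.0917). Without the phyAB libraries numbered 3 the phyAB values were -1.55 at 21 °C and -1.74 at 27 °C.

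RSL2, of the same family as RSL4, moved the other way in phyAB. It read 27.6, 25.9 and 24.98 CPM in Col-0 at 21 °C, 26.2, 19.4 and 25.1 CPM in hy5 and 38.1, 40.5 and 40.1 CPM in phyAB. All phyAB libraries lay above all others, while hy5 and Col-0 overlapped. The log2 fold change of phyAB against Col-0 was 0.60 (SE 0.0992, adjusted p = 0.00011, edgeR) at 21 °C and 0.49 (SE 0.0967, adjusted p = 0.000674) at 27 °C, where RSL2 read 28.4, 31.1 and 32.7 CPM in Col-0 and 41.1, 45.8 and 42.5 CPM in phyAB. In hy5 it did not pass, at -0.15 (SE 0.102, adjusted p = 0.262) and 0.11 (SE 0.0979, adjusted p = 0.403). The ratio of RSL2 to RSL4 was 2.002 ± 0.125 in Col-0 and 2.47 ± 0.214 in hy5 roots at 21 °C (SD, n = 3), against 9.29 ± 1.04 in phyAB, and at 27 °C it was 2.27 ± 0.116, 3.23 ± 0.486 and 10.9 ± 0.415.

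GL2 and RHD6, the factors that act first, did not pass in a mutant at either temperature. GL2 read 21.4, 21.0 and 21.4 CPM in Col-0 at 21 °C, 21.4, 19.8 and 20.6 CPM in hy5 and 21.0, 18.4 and 21.3 CPM in phyAB, groups that overlap. Its log2 fold change was -0.04 (SE 0.0946) in hy5 and -0.07 (SE 0.0957) in phyAB at 21 °C, with intervals of 2 SE from -0.233 to 0.146 and from -0.261 to 0.121. RHD6 gave -0.12 (SE 0.0825, adjusted p = 0.303) in hy5 and -0.14 (SE 0.0833, adjusted p = 0.216) in phyAB at 21 °C, with intervals from -0.280 to 0.0498 and from -0.304 to 0.0290. The RHD6 libraries of phyAB all lay below those of Col-0 at 21 °C, and those of hy5 below those of Col-0 at 27 °C, by margins that did not pass. Without hy5 at 21 °C, replicate 1, RHD6 passed as lower in hy5 (log2 fold change -0.22, adjusted p = 0.0435), and without Col-0 at 27 °C, replicate 1, GL2 passed as lower in hy5 at 27 °C (-0.20, adjusted p = 0.0482).

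The other wall genes, EXPA7, EXPA18, COBL9 and LRX1, had negative log2 fold changes in both mutants at both temperatures, smaller than those of PRP1. EXPA7 read 68.7, 58.1 and 61.5 CPM in Col-0 at 21 °C and 49.5, 46.5 and 47.7 CPM in phyAB, and EXPA18 64.5, 60.3 and 55.3 against 46.7, 37.0 and 38.7 CPM, in each case without overlap. Both fell in phyAB at 21 °C, EXPA7 by a log2 fold change of -0.39 (SE 0.101, adjusted p = 0.00526, edgeR) and EXPA18 by -0.56 (SE 0.130, adjusted p = 0.00241), and at 27 °C, by -0.33 (SE 0.0998, adjusted p = 0.018) and -0.45 (SE 0.129, adjusted p = 0.0127). The 27 °C calls were lost without both phyAB libraries numbered 3 (-0.30, adjusted p = 0.0747, and -0.41, adjusted p = 0.0574) and without the 27 °C one alone (adjusted p = 0.0658 for EXPA7 and 0.0513 for EXPA18), and that of EXPA7 also without Col-0 at 27 °C, replicate 2 (-0.30, adjusted p = 0.0598). In the main fit COBL9 passed only in phyAB at 21 °C, at 59.4 ± 3.20 against 47.8 ± 2.91 CPM (SD, n = 3, log2 fold change -0.31, SE 0.0986, adjusted p = 0.0178). That call was lost without Col-0 replicate 2 (-0.28, adjusted p = 0.0737) or phyAB replicate 2 (-0.27, adjusted p = 0.0721). At 27 °C COBL9 missed without overlap, in hy5 (-0.25, adjusted p = 0.0611) and phyAB (-0.24, adjusted p = 0.0682). In each it passed without Col-0 at 27 °C, replicate 1, and with only the groups compared. PRP3 missed in phyAB at 27 °C (-0.33, adjusted p = 0.0913), also without overlap, and passed with only the groups compared. LRX1 just missed in phyAB at 21 °C, at 112 ± 3.30 against 86.3 ± 18.2 CPM (log2 fold change -0.38, SE 0.148, adjusted p = 0.0523), and passed without the libraries numbered 3 (-0.51, adjusted p = 0.0258), without the 21 °C one alone (adjusted p = 0.0212), with DESeq2 (0.0425) and with no filter on low counts (0.0335). In hy5 at 27 °C the calls were PRP3 (-0.64, SE 0.143, adjusted p = 0.00198), EXPA7 (-0.39, SE 0.0999, adjusted p = 0.00575), EXPA18 (-0.47, SE 0.129, adjusted p = 0.00821) and LRX1 (-0.45, SE 0.148, adjusted p = 0.024). The EXPA18 and LRX1 calls were lost without hy5 at 27 °C, replicate 3 (adjusted p = 0.0535 and 0.0881), and that of LRX1 also without hy5 replicate 2 (0.0509) or Col-0 replicate 2 (0.0524) or 3 (0.0698). At 21 °C in hy5 the spread was wide, since replicate 2 was low: LRX1 read 123, 70.7 and 100 CPM there, and PRP3 lost its call without that library (log2 fold change -0.18, adjusted p = 0.182). The PRP3 call was also lost without hy5 replicate 3 (-0.43, adjusted p = 0.0535) or Col-0 replicate 1 (-0.35, adjusted p = 0.116) or 2 (-0.39, adjusted p = 0.0846), with robust estimates (adjusted p = 0.061) and with only the groups compared (0.126).

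By count, hy5 roots at 21 °C had 3 of the 10 genes lower than Col-0 and 0 higher, where 35.1% of all genes tested changed in either direction, so that the share called among the 10 is near the background. In phyAB at 21 °C 6 were lower and 1 higher, against a background of 35.2%. At 27 °C hy5 had 6 lower and 0 higher against 33.4%, and phyAB 4 lower and 1 higher against 31.1%. The median log2 fold change of the 10 genes was -0.216 and -0.386 at 21 °C in hy5 and phyAB and -0.380 and -0.285 at 27 °C, beside medians of all genes tested between -0.0010 and 0.013. Single libraries moved these counts. Lower calls in hy5 at 21 °C numbered 7 without its replicate 1, when RHD6, EXPA7, EXPA18 and LRX1 joined, and 2 without hy5 replicate 2 or 3 or Col-0 replicate 1. In hy5 at 27 °C they numbered 3 without hy5 replicate 3, and in phyAB at 27 °C 2 without phyAB replicate 3. All 6 wall genes lay below 0 in each of these 4 comparisons, which share their Col-0 libraries. Set directly against hy5, phyAB had 1 gene higher, RSL2, and 1 lower, RSL4, at 21 °C, against a background of 24.8%. Without hy5 replicate 2 there were 6 lower, since PRP3, EXPA7, EXPA18, COBL9 and LRX1 then passed too. At 27 °C RSL2 was higher (log2 fold change 0.38, adjusted p = 0.0128, edgeR) and RSL4 and PRP1 lower (-1.40, adjusted p = 1.01e-06, and -1.58, adjusted p = 0.0148), against a background of 14.1%. The PRP1 call was lost without hy5 replicate 1 (-0.97, adjusted p = 0.136) or phyAB replicate 1 (-1.58, adjusted p = 0.0521) or 2 (-1.26, adjusted p = 0.0826). The RSL2 call was lost without hy5 replicate 1 (0.29, adjusted p = 0.0777) or phyAB replicate 2 (0.33, adjusted p = 0.0641). In whole roots fewer hair cells and less transcript per hair cell cannot be told apart. Of other root tissues, 6 tip and cap markers summed to 37.0 to 46.3 CPM in Col-0, 36.4 to 40.6 CPM in hy5 and 47.0 to 55.6 CPM in phyAB at 21 °C, and 5 stele markers to 414 to 424, 546 to 599 and 379 to 504 CPM. Endodermis markers were higher in 2 of 8 genes in hy5 and 6 of 8 in phyAB at 21 °C, and in 6 of 8 and 7 of 8 at 27 °C, where 3 of 6 tip and cap markers were higher in phyAB too. The part of these tissues in the results was not tested.

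**Figure D3:**
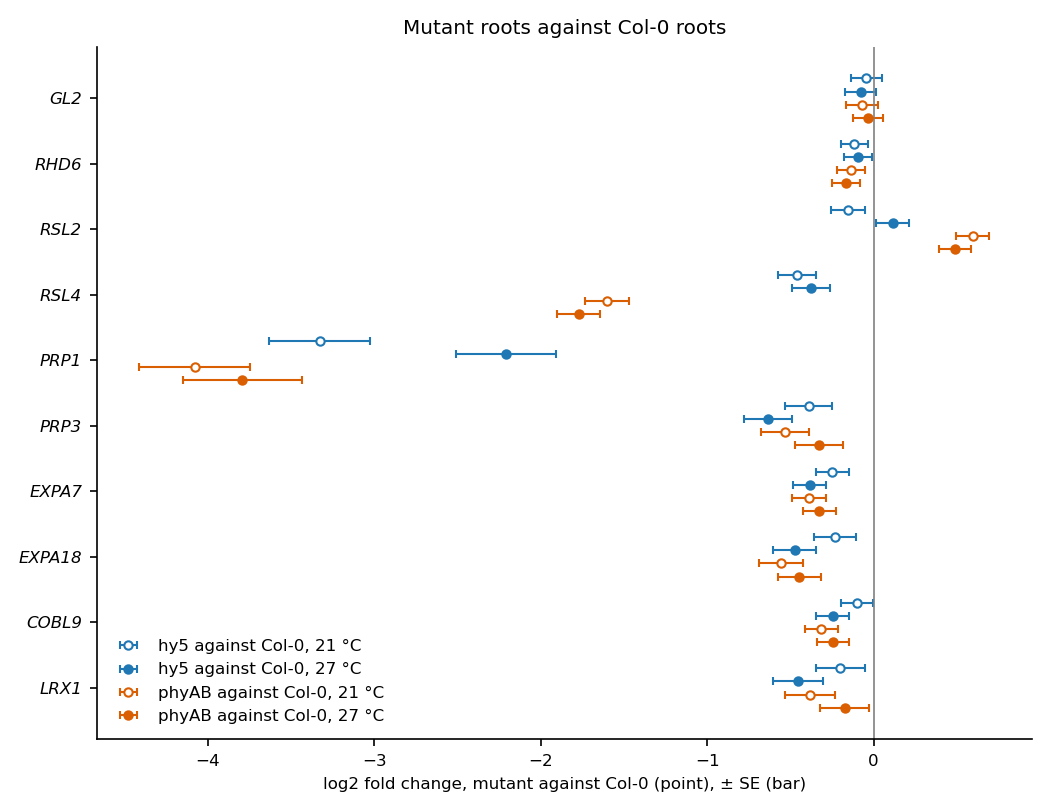
log2 fold change of each gene in hy5 or phyAB roots against Col-0 roots, at 21 °C (open) and 27 °C (filled), with bars of 1 SE from edgeR and 3 libraries per group. PRP1 lies at -4.08 to -2.21, RSL4 at -1.77 to -0.38, RSL2 above 0 in phyAB, and GL2 and RHD6 close to 0.

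Under warmth none of the 10 genes moved as far as PRP1 or RSL4 did in phyAB. RHD6 was the only one of the 10 that passed in all 3 genotypes, and it fell each time. It read 26.7, 27.8 and 28.5 CPM at 21 °C and 22.3, 24.8 and 22.7 CPM at 27 °C in Col-0 roots, 29.1, 22.6 and 24.9 against 22.2, 20.9 and 22.2 CPM in hy5, and 24.1, 25.02 and 26.4 against 19.5, 20.02 and 22.8 CPM in phyAB. No 27 °C library reached a 21 °C library of its genotype. The log2 fold changes were -0.25 (SE 0.0818, adjusted p = 0.0185, edgeR), -0.23 (SE 0.0845, adjusted p = 0.0292) and -0.28 (SE 0.0858, adjusted p = 0.0152). These calls are close to the threshold. Leaving out single libraries gave adjusted p-values of up to 0.0679 in Col-0 (4 of 6 libraries, all but replicate 1 at 21 °C and replicate 2 at 27 °C), 0.217 in hy5 (replicate 1 at 21 °C or replicate 2 at 27 °C) and 0.0742 in phyAB (replicate 3 at 21 °C or replicate 1 or 2 at 27 °C), each with the same direction. Scaled by library totals alone, RHD6 did not pass in Col-0 (-0.18, adjusted p = 0.0787) or hy5 (-0.16, adjusted p = 0.109).

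PRP1 fell with warmth in Col-0 only as far as the threshold goes, from 60.5 ± 9.99 to 31.9 ± 1.42 CPM (SD, n = 3), a log2 fold change of -0.92 (SE 0.252, adjusted p = 0.0063, edgeR) that missed with DESeq2 (adjusted p = 0.0933). In hy5 it stood at 6.07 ± 2.16 and 6.87 ± 4.11 CPM and in phyAB at 3.53 ± 1.47 and 2.34 ± 1.19 CPM at 21 °C and 27 °C, groups that overlap. The difference of responses was not past the threshold, at 1.12 (SE 0.435, adjusted p = 0.36) for hy5 minus Col-0 and 0.29 (SE 0.546, adjusted p = 0.91) for phyAB minus Col-0. The photosynthesis sum rose here, from 214 to 274 CPM at 21 °C to 492 to 606 CPM at 27 °C in Col-0 roots, with 9 of 11 genes higher. The part of those transcripts in the change of PRP1 was not tested.

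In hy5 roots warmth raised RSL2, from 26.2, 19.4 and 25.1 CPM to 29.5, 37.5 and 32.7 CPM (log2 fold change 0.50, SE 0.101, adjusted p = 0.000476, edgeR). The groups did not overlap. RSL2 did not pass in Col-0 (0.23, SE 0.0986, adjusted p = 0.0651) or phyAB (0.13, SE 0.0972, adjusted p = 0.331), although in both each 27 °C library lay above each 21 °C library, and the responses did not differ by test (hy5 minus Col-0 0.27, SE 0.141, adjusted p = 0.563). In Col-0 it passed without replicate 1 at 27 °C (0.29, adjusted p = 0.0438) and when scaled by library totals alone (0.31, adjusted p = 0.0142). The wall genes LRX1 (-0.49, SE 0.149, adjusted p = 0.0103), PRP3 (-0.45, SE 0.144, adjusted p = 0.0135), EXPA18 (-0.42, SE 0.131, adjusted p = 0.0131) and COBL9 (-0.29, SE 0.0990, adjusted p = 0.0193) fell in hy5. Their groups overlap, with the 21 °C replicate 2 inside the range of the 27 °C libraries. With RHD6 that makes 5 genes lower, a count that fell to 0 without hy5 at 21 °C, replicate 1, the highest library of that group (LRX1 -0.30, adjusted p = 0.0957), and rose to 6 without replicate 2, when EXPA7 joined them (-0.34, adjusted p = 0.00246). Without replicate 3 at 27 °C the calls of PRP3 (-0.36, adjusted p = 0.0708), EXPA18 (-0.30, adjusted p = 0.079) and COBL9 (-0.27, adjusted p = 0.0582) were lost. That of COBL9 was also lost without replicate 2 at 27 °C (adjusted p = 0.0506) or 3 at 21 °C (0.0549) and with library totals alone (0.0581), and that of PRP3 with only the groups compared (0.0596). Endodermis markers summed to 387 to 455 CPM at 21 °C and 500 to 601 CPM at 27 °C in these hy5 roots. With warmth 4 of these 8 markers were higher and 1 lower in hy5, 1 and 2 in Col-0, and 3 and 1 in phyAB. Of 6 tip and cap markers 0 were higher and 2 lower in hy5 and in Col-0, and 0 passed in phyAB. The part of these tissues in the results was not tested. In phyAB roots PRP3, EXPA7, EXPA18, COBL9 and LRX1 had log2 fold changes of -0.08 to 0.01, and none passed.

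GL2 and RSL4 passed in no genotype. GL2 read 19.4, 25.8 and 25.9 CPM in Col-0 at 27 °C, and without the first of these it passed as higher (log2 fold change 0.28, adjusted p = 0.00626, edgeR); its value with all libraries was 0.16 (SE 0.0922, adjusted p = 0.18). In hy5 and phyAB it was 0.12 (SE 0.0950, adjusted p = 0.3) and 0.19 (SE 0.0961, adjusted p = 0.122), with no overlap in phyAB. Scaled by library totals alone it passed in Col-0 (0.23, adjusted p = 0.0447). RSL4 gave 0.05 (SE 0.110) in Col-0, 0.13 (SE 0.119) in hy5 and -0.13 (SE 0.153) in phyAB.

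Counted together, warmth raised 0 and lowered 2 of the 10 genes in Col-0 roots, where 43.5% of all genes tested changed, raised 1 and lowered 5 in hy5, where 49.6% changed, and raised 0 and lowered 1 in phyAB, where 38.3% changed. The shares in Col-0 and phyAB lie below these backgrounds. Without Col-0 replicate 1 at 27 °C the Col-0 counts were 2 raised, GL2 and RSL2, and 1 lowered, PRP1. With DESeq2 the counts were 0 and 1 in Col-0, 1 and 5 in hy5 and 0 and 1 in phyAB. For the difference of the temperature response, 0 of the 10 genes passed with edgeR or DESeq2 in hy5 minus Col-0, where 0.413% of all genes did, and 0 in phyAB minus Col-0, where 0.0983% did; at an unadjusted p under 0.05 there was 1, PRP1, and 0. The intervals of 2 SE for hy5 minus Col-0 ran from -0.216 to 0.254 for RHD6 and from 0.249 to 1.99 for PRP1.

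**Figure D4:**
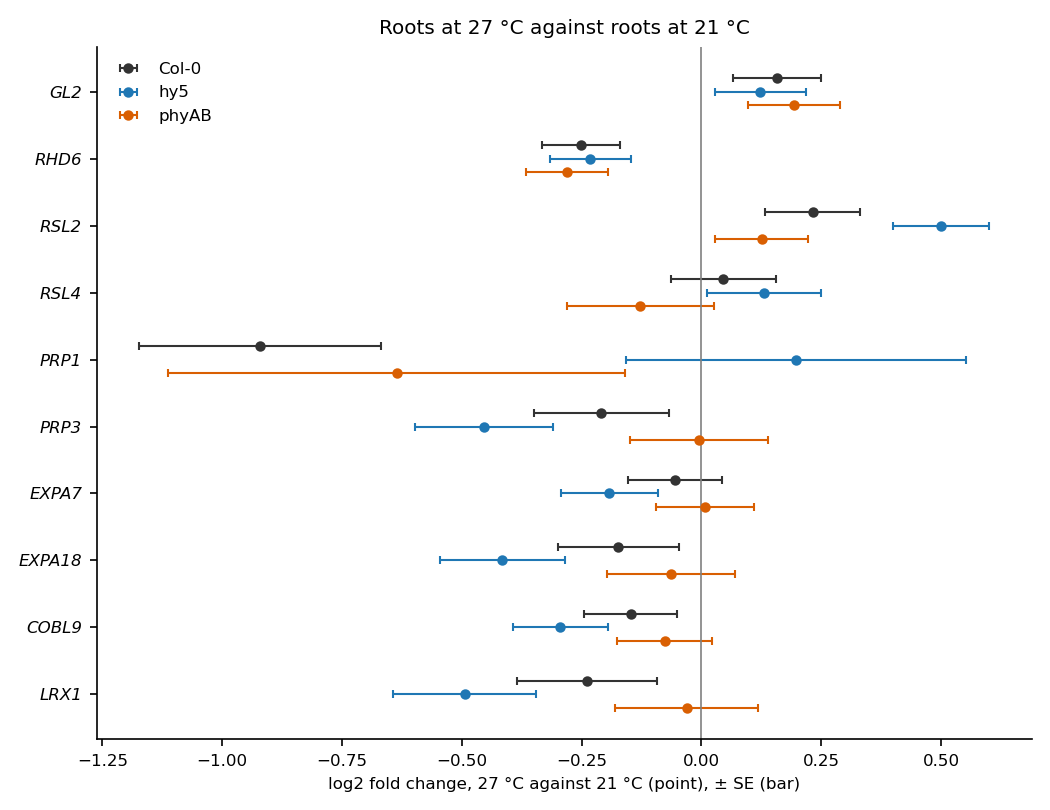
log2 fold change of each gene at 27 °C against 21 °C in roots of Col-0, hy5 and phyAB, with bars of 1 SE from edgeR and 3 libraries per group. RHD6 lies at -0.28 to -0.23 in the 3 genotypes, PRP1 at -0.92 in Col-0, and 5 wall genes other than PRP1 lie near 0 in phyAB.

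Within the group, levels over the 6 root groups differed in span. PRP1 covered 4.42 log2 units between its highest and lowest group mean, RSL4 1.66 and RSL2 0.860, against 0.222 for GL2 and 0.407 for RHD6. The expansin pair kept close together: the ratio of EXPA7 to EXPA18 reads was 0.964 to 1.32 over the 18 root libraries, and that of EXPA7 to COBL9 was 0.928 to 1.23. The summed level of the 6 wall genes was 553 ± 35.0 CPM in Col-0 at 21 °C (SD, n = 3), 414 ± 103 in hy5 and 363 ± 27.4 in phyAB, and 466 ± 13.1, 316 ± 31.2 and 355 ± 16.1 CPM at 27 °C. Without PRP1 the 21 °C sums were 493 ± 25.3, 408 ± 101 and 360 ± 28.8 CPM, so PRP1 carries a small part of the sum in mutants.

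Genes with the most similar patterns were ranked by the root mean square distance between centred log2(CPM + 0.5) profiles of the 6 root groups, over 20345 genes. Nearest to the mean of the 6 wall genes were CP29 (AT3G53460) at 0.0297, AT2G22510 at 0.0343, AT1G60680 at 0.0457, AT1G23330 at 0.0564 and PG1 (AT1G60390) at 0.0613, where the median gene lay at 0.458. CP29 fell from 118 CPM in Col-0 at 21 °C to 51.0 CPM in phyAB at 27 °C. PRP1 weighs heavily in that mean and lies itself at 1.20, farther than the median gene. Closest to RHD6, RSL2 and RSL4 averaged were NAP1;4 (AT3G13782) at 0.0177, AT3G20390 at 0.0459, AT3G15395 at 0.0519, CVL1 (AT2G32010) at 0.0555 and AT4G19450 at 0.0556, although RSL2 and RSL4 themselves lay at 0.430 and 0.513. The flat profile of GL2 had AT2G01275 at 0.0154, AT3G29230 at 0.0203, ACBP2 (AT4G27780) at 0.0205, AT5G11680 at 0.0212 and AT5G11340 at 0.0213 as neighbours. These distances describe 6 group means that share libraries and carry no test.

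Other genes of the pathway were taken from 4 lists with 58 genes in all: 13 for hair patterning, 7 for hair bHLH factors and repressors, 21 for the growth machinery and 17 of the root hair specific (RHS) series. In Col-0 roots warmth raised 7 of the 58 and lowered 10; in hy5 roots it raised 6 and lowered 14, and in phyAB roots it raised 7 and lowered 7. In each genotype this is a smaller share than among all genes tested, 43.5%, 49.6% and 38.3%. The largest fall was that of GL3 (AT5G41315), a bHLH partner in the complex upstream of GL2. It read 17.4, 14.8 and 15.4 CPM at 21 °C and 7.05, 8.16 and 7.21 CPM at 27 °C in Col-0, and dropped from 13.3 ± 2.48 to 4.09 ± 0.921 CPM in hy5 and from 14.3 ± 2.16 to 5.24 ± 0.225 CPM in phyAB (SD, n = 3). The groups stand apart in all 3 genotypes, with log2 fold changes of -1.09 (SE 0.139, adjusted p = 6.28e-06, edgeR), -1.70 (SE 0.159, adjusted p = 1.15e-07) and -1.44 (SE 0.154, adjusted p = 1.44e-06), while GL2 passed in none. The single-repeat MYB genes ETC1, with -0.96 in Col-0 (SE 0.184, adjusted p = 0.000387) and -1.16 in phyAB (SE 0.182, adjusted p = 7.55e-05), and CPL3, with -1.45 in hy5 (SE 0.260, adjusted p = 0.000158) and -1.21 in phyAB (SE 0.257, adjusted p = 0.00117), fell as well. MYB23, a MYB of the hairless files, rose in Col-0 (0.63, SE 0.149, adjusted p = 0.00226), and RHS15 fell in hy5 from 42.9 ± 10.5 to 18.5 ± 1.42 CPM (-1.21, SE 0.144, adjusted p = 1.7e-06).

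Against Col-0 at 21 °C, 11 of the 58 pathway genes were higher and 13 lower in hy5 roots, and 10 higher and 16 lower in phyAB, beside 35.1% and 35.2% of all genes called in either direction. The RHS genes made up 5 of the lower ones in hy5 and 8 in phyAB, of 17, with medians of -0.219 and -0.282 beside 0.013 and -0.0010 for all genes. AT2G14760, a locus of the bHLH list, read 1.98, 1.31 and 1.25 CPM in Col-0, 4.21, 2.54 and 3.16 CPM in the hy5 libraries and 4.34, 5.28 and 5.68 CPM in phyAB. Like RSL2 it was higher in phyAB (log2 fold change 1.75, SE 0.220, adjusted p = 5.01e-06, edgeR), and unlike RSL2 it was higher in hy5 too (1.14, SE 0.229, adjusted p = 0.000694). ZFP5, a zinc finger factor that promotes hair formation, rose in hy5 from 6.12 ± 0.548 to 12.8 ± 2.68 CPM (SD, n = 3; 1.08, SE 0.135, adjusted p = 4.17e-06). RHS15 was higher in both mutants, at 20.5 ± 1.66 CPM in Col-0, 42.9 ± 10.5 in hy5 (1.06, SE 0.141, adjusted p = 8.26e-06) and 40.5 ± 3.80 in phyAB (0.98, SE 0.142, adjusted p = 2.53e-05). RHS12, a pectin methylesterase gene, was lower in phyAB, at 21.9 ± 2.08 against 48.2 ± 3.37 CPM (-1.13, SE 0.145, adjusted p = 6.21e-06).

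At 27 °C 6 of the 58 were higher and 19 lower in hy5 and 9 higher and 12 lower in phyAB, beside 33.4% and 31.1% of all genes. Of the 17 RHS genes 10 were lower in hy5 and 6 in phyAB, with medians of -0.488 and -0.275. RHS19, a peroxidase gene, read 59.4 ± 6.06 CPM in hy5 and 132 ± 3.42 CPM in Col-0 (SD, n = 3; log2 fold change -1.15, SE 0.137, adjusted p = 2.89e-06, edgeR), and RHS1 1.63 ± 0.574 against 4.65 ± 0.421 CPM (-1.495, SE 0.253, adjusted p = 0.000139). Both were higher in phyAB than in hy5 at 27 °C, by 0.87 (SE 0.138, adjusted p = 0.000225) and 1.015 (SE 0.269, adjusted p = 0.0148). AT2G14760 was again higher in phyAB than in Col-0 (1.80, SE 0.203, adjusted p = 1.64e-06) and than in hy5 (1.29, SE 0.20, adjusted p = 0.000188), RHS15 higher than in Col-0 in phyAB (1.06, SE 0.146, adjusted p = 1.63e-05), and ZFP5 in hy5 (1.20, SE 0.126, adjusted p = 5.6e-07) and phyAB (0.97, SE 0.128, adjusted p = 9.88e-06). At 21 °C phyAB exceeded hy5 in AT2G14760 (0.62, SE 0.20, adjusted p = 0.0306) and MYB23 (0.61, SE 0.156, adjusted p = 0.00812) and lay below it in RHS5 (-0.55, SE 0.197, adjusted p = 0.0473), with overlap in the last.

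Shoots served as the contrast, since they bear no root hairs. On a scale shared by all 36 libraries, every root library exceeded every shoot library for each of the 10 genes. The share of all genes for which this holds was not computed, so this count has no background. RHD6, RSL2, RSL4, PRP1, EXPA7 and COBL9 stayed under 1 CPM in all 18 shoot libraries, EXPA18 reached 1.08, LRX1 1.64 and PRP3 3.97 CPM, and the highest single count among these 9 genes in a shoot library was 64 reads, of PRP3. GL2, which in leaves also acts in the hairs called trichomes, ranged from 2.93 to 8.72 CPM in shoots and from 14.2 to 20.3 CPM in roots on this scale. All 10 genes were higher in root than in shoot in each of the 6 genotype and temperature pairs, where the share of all genes higher in root was 40.5% and 39.6% in Col-0 at 21 °C and 27 °C, 39.1% and 38.8% in hy5 and 38.7% and 39.5% in phyAB. RSL2, RSL4, PRP1, EXPA7 and EXPA18 did not pass the low-count filter in shoots. They entered this comparison through their root counts, so the filter largely set their direction beforehand. In Col-0 at 21 °C the log2 difference between root and shoot ran from 1.62 (SE 0.116, adjusted p = 6.19e-14, edgeR) for GL2 to 9.66 (SE 0.468, adjusted p = 2.16e-18) for PRP3. For PRP1 it was 9.07 (SE 0.552) in Col-0, 6.45 (SE 0.892) in hy5 and 4.42 (SE 0.803) in phyAB at 21 °C, with 28 reads in all over the 18 shoot libraries. Counts this low leave these shoot values imprecise.

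**Figure D5:**
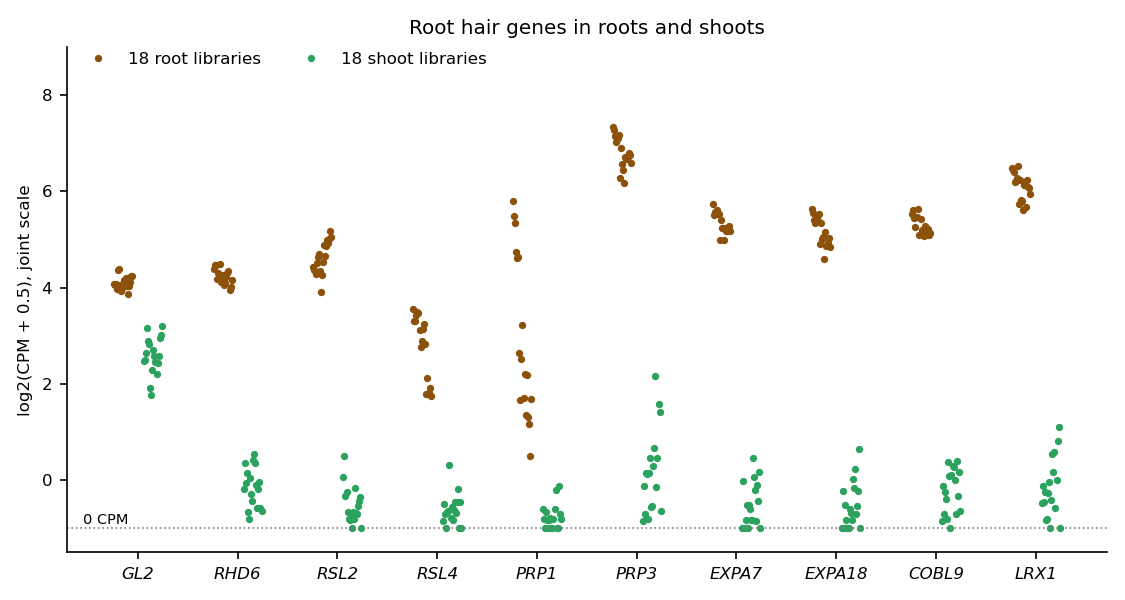
Level of each gene in the 18 root and 18 shoot libraries as log2(CPM + 0.5) on the scale shared by both tissues; the dotted line marks 0 CPM, and points of a gene are spread sideways by group. Root and shoot libraries do not overlap for any of the 10 genes, a count with no matching share over all genes. GL2 is the one gene above 2.9 CPM in every shoot library.

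GL2 was also the one of the 5 genes tested that passed with warmth in shoots, and it rose in each genotype. In Col-0 shoots it read 5.09, 5.13 and 5.71 CPM at 21 °C and 8.47, 6.94 and 6.56 CPM at 27 °C, in hy5 3.29, 2.93 and 4.37 against 5.99, 5.50 and 5.01 CPM, and in phyAB 4.09, 4.94 and 5.52 against 7.23, 7.60 and 8.72 CPM. No groups overlapped within a genotype. The log2 fold changes were 0.44 (SE 0.145, adjusted p = 0.0193, edgeR), 0.62 (SE 0.160, adjusted p = 0.00413) and 0.68 (SE 0.144, adjusted p = 0.000982), and the Col-0 call was lost without replicate 1 at 27 °C (0.33, adjusted p = 0.104), replicate 1 at 21 °C (0.41, adjusted p = 0.0619) or replicate 2 at 21 °C (0.41, adjusted p = 0.0583). That is 1 of the 5 genes tested in shoots, where 45.6% of all genes changed in Col-0, 45.6% in the hy5 mutant and 43.4% in phyAB. Against Col-0 shoots at 21 °C, GL2 was lower in hy5 (-0.58, SE 0.158, adjusted p = 0.0161), 1 of 5 beside a background of 17.9%, and that call was lost without Col-0 replicate 3 (adjusted p = 0.0618) or hy5 replicate 1 (0.0566) or 2 (0.0783).

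The wall genes PRP3 and LRX1 gave the other shoot calls, in phyAB. PRP3 read 0.0547, 0.422 and 0.117 CPM in Col-0 and 3.97, 0.402 and 0.878 CPM in phyAB shoots at 21 °C, 1 of 5 genes called beside a background of 38.2% (log2 fold change 3.19, SE 1.05, adjusted p = 0.0226, edgeR). The groups overlap, and without the phyAB library at 3.97 CPM the call was lost (1.74, adjusted p = 0.246), as it was without Col-0 replicate 1 (adjusted p = 0.0875) or 3 (0.0666). LRX1 read 0.339, 0.0668 and 0.0713 CPM in Col-0 and 1.26, 1.64 and 0 CPM in phyAB shoots at 27 °C, again 1 of 5, beside 42.5% (2.59, SE 0.979, adjusted p = 0.0411), and that call was lost without phyAB replicate 1 (adjusted p = 0.0984) or 2 (0.182) or Col-0 replicate 2 (0.127) or 3 (0.113). Endodermis markers in shoots summed to 66.6 to 72.4 CPM in Col-0 and 136 to 145 CPM in phyAB at 21 °C and to 68.7 to 81.5 and 91.3 to 119 CPM at 27 °C, while tip and cap markers were at 2.74 to 3.66 and 1.80 to 3.39 CPM at 21 °C. The part of root tissue in these shoot values was not tested. Without phyAB replicate 3 at 27 °C, PRP3 passed there too (2.41, adjusted p = 0.0285). In hy5 shoots at 27 °C 0 of 5 genes passed in the fit without a replicate term, beside a background of 12.2%. At an unadjusted p under 0.05 there were 2, and with DESeq2 0. RHD6 passed there without Col-0 replicate 1 (log2 fold change 2.96, adjusted p = 0.00816) and with the replicate number as a block (1.65, adjusted p = 0.0415), at levels under 1 CPM.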

How the data were processed

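Per the labels' protocols, total RNA of roots or shoots went into stranded mRNA libraries, read from 1 end over 50 bases. FastQC, TopHat2, HTSeq and edgeR with the TAIR10 build are named in the submitters' processing notes; no source used here gives versions or the strand setting. The deposited values are whole-number counts of reads per gene, made by the authors before any scaling, for 36 libraries. The 5 summary categories after the genes were left out; reads aligned at more than 1 place were 5.00% to 10.4% of a root and 8.29% to 34.6% of a shoot library, and uncounted. Replicates differed beyond counting noise (chi-square per degree of freedom 3.27 to 15.2 in 36 pairs).

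Counts were fitted with edgeR 4.0.16 in R 4.3.3 with a term for group alone, after TMM scaling and edgeR's low-count filter by group: 20355 genes over the 18 root libraries, 20100 over the 18 shoot libraries and 21598 over all 36, the last for root against shoot, shoot levels and marker sums. Quasi-likelihood tests covered 24 contrasts, adjusted by Benjamini-Hochberg over all genes, with 0.05 as the threshold; SE is the log2 fold change over the square root of F. The procedure was tested on simulated data. Alternatives were other size factors, library totals alone, no filter, only the groups compared, a replicate term, DESeq2 1.42.0, single libraries left out and, chosen after seeing the data, robust estimates and the phyAB root libraries numbered 3 left out.

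Whether replicate numbers pair libraries was checked by the correlation of same-numbered libraries' deviations from their group means. Of 45 shoot pairs (r from -0.134 to 0.381) 18 were over 0.1, among them all 3 of hy5 with Col-0 (0.157, 0.206 and 0.381) and all 3 of phyAB with Col-0 (0.231, 0.154 and 0.357) at 27 °C. For those comparisons the numbers were taken as likely to pair the libraries, from the data and not the labels. The main fit has no term for this, so the main tests of these comparisons are unpaired. The fit with a replicate term is given as an alternative. Replicate 3 of the 27 °C shoots also had 27.8% to 34.6% of reads aligned at more than 1 place in the 3 genotypes, against 9.02% to 10.2% in replicates 1 and 2.

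The members, pathway lists and markers were chosen with earlier results of these data known. Of 60 pathway pairs of symbol and locus, 2 were dropped because the reference gives the locus another symbol, and 2 loci have no symbol there. Named pathway genes are the 3 with the largest absolute log2 fold change past the threshold in each root contrast of temperature or genotype. Upstream sequence came from the TAIR10.1 genome and its RefSeq annotation. The table of promoters assumed at the design stage was not used here, so the genome was read instead. Few reads limit the precision of the shoot values. Each SD is the spread over the 3 libraries of a group, while each SE comes from a fit that shares its estimate of spread over groups.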

Additional observations from a re-analysis of the deposited data

How the results depend on the processing

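None of the 10 genes past the threshold, with all libraries or under an alternative run, had the opposite sign in the other. Members that passed in neither were not compared for sign, and the named pathway genes were not compared between runs. With library totals alone, warmth raised 2 and lowered 1 of the 10 genes in Col-0 roots and lowered 3 in hy5 roots. Over all genes that run raised 5696 and lowered 3303 in Col-0, against 4415 and 4442 in the main fit. In hy5 it raised 6447 and lowered 3948, against 5224 and 4873. That scaling moved the median of all genes by 0.862 (log2) in root against shoot. Most counts of the runs that follow are given without such totals. With only the groups compared, the counts were 1 raised and 4 lowered in Col-0, 3 lowered in hy5, 7 lower in phyAB against Col-0 at 27 °C, 3 higher in phyAB against hy5 at 27 °C, 2 raised in hy5 shoots and 0 higher in phyAB shoots at either temperature, where 1 gene was tested. With no filter, 2 of 10 genes tested were lower in hy5 and 1 in phyAB shoots at 21 °C. The filter leaves 5 genes to test there, and those it drops had at most 19 reads in a shoot library. Robust estimates left 0 higher in phyAB shoots at 21 °C and 27 °C, DESeq2 left 1 lowered by warmth in Col-0 roots, and leaving out both phyAB root libraries numbered 3 left 2 lower at 27 °C. The cause was not tested. Of 45 root pairs (r from -0.153 to 0.205) 13 were over 0.1, among them all 3 of phyAB at 27 °C with phyAB at 21 °C (0.16, 0.162 and 0.165). There the numbers may pair the libraries, and the main fit has no term for this. In the replicate block fit LRX1 passed as lower in phyAB roots (-0.39, adjusted p = 0.0288) and EXPA7 in hy5 roots (-0.25, adjusted p = 0.0421) at 21 °C. In hy5 shoots at 27 °C the block gave 1 gene higher, RHD6, against 0 without it, and 3070 calls over all genes against 2460; it changed no other call of the 10 genes.

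Leaving out single libraries gave ranges, for warmth in roots, of 0 to 2 raised and 1 to 2 lowered in Col-0, 1 raised and 0 to 6 lowered in hy5, and 0 to 1 lowered in phyAB. These and the next member counts are given without the share of all genes called in each run. Against Col-0 roots, 2 to 7 genes were lower in hy5 and 5 to 7 in phyAB at 21 °C, and 3 to 8 and 2 to 5 at 27 °C. For phyAB against hy5, 1 to 6 were lower at 21 °C, and 0 to 1 higher and 1 to 2 lower at 27 °C. In shoots, warmth raised 0 to 1 and lowered 0 to 1 in Col-0; 0 to 1 were lower in hy5 and 0 to 1 higher in phyAB at 21 °C, and 0 to 1 higher in hy5 and 0 to 3 in phyAB at 27 °C. Root against shoot stayed at 10 of 10. RSL2, RSL4, PRP1, EXPA7 and EXPA18 entered it through their root counts, so the filter largely set their direction beforehand. Over all genes, the difference of responses gave 84 calls for hy5 minus Col-0, 147 with no filter, 172 with the block, 238 with DESeq2 and 42 to 129 without single libraries; phyAB minus Col-0 gave 20, 91, 104, 155, 7 to 61, and 9 without both libraries numbered 3. phyAB against hy5 roots at 21 °C gave 5051, and 3039 with only those groups; hy5 shoots gave 2460 at 27 °C, and 1441 to 1569 without some single libraries, and 3604 at 21 °C, and 2376 without hy5 replicate 2.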
